A study of Mus musculus with 6 samples.

Results

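The genes described here encode the subunits of voltage-gated sodium and calcium channels and of potassium channels. They were chosen by symbol alone: Kcn followed by letters and a number, Scn followed by a number and a or b, and the Cacna1, Cacna2d, Cacnb and Cacng series. The rule found 132 of the 51733 gene symbols in the tables, of which 92 were potassium, 14 sodium and 26 calcium channel subunits in 20 families. They were measured by RNA-seq in neural progenitor cells (NPCs) from neural tubes of C57BL/6 mouse embryos at E13.5, sorted for Sox2 with a Sox2-eGFP knock-in reporter that every library shares. Control NPCs came from wild-type siblings (3 libraries), and Ybx1-KO NPCs came from embryos homozygous for Ybx1tm1Ley, a constitutive null allele that removes Ybx1 from every tissue and not from NPCs alone (3 libraries). Ybx1 is a nucleic acid-binding protein of the Y-box family that acts in transcription and in RNA processing, stability and translation. Nothing in the labels says whether a library holds 1 embryo or several, so the p-values measure the spread between these libraries. In the titles 2 controls share a leading number and 2 Ybx1-KO libraries share another, none spans the genotypes, and the labels do not say what it marks. Libraries that share it may not be independent, and whatever it marks cannot be told apart from the genotype. The question was which channel subunits were already expressed in these NPC libraries at this stage, and whether their transcripts differed between the genotypes.

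A voltage-gated channel is built around a pore subunit that senses the membrane potential, and auxiliary subunits set its traffic to the membrane and the speed of its gating. Sodium channels carry the upstroke of the action potential, calcium channels couple depolarization to secretion and to calcium-dependent transcription, and potassium channels set the resting potential and end the spike. Mature neurons use many of these genes, yet progenitors and newborn neurons of the embryonic neural tube already express some of them, among them forms that later give way to adult ones.

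Counts on genes ranged from 20841990 to 23883542 in the controls and from 4743279 to 13321952 in Ybx1-KO. Ybx1-KO 3 stood apart: 7.22% of its read pairs fell on genes (18.0% to 24.7% elsewhere), 59.5% on no feature (30.6% to 46.7% elsewhere), and 1729 olfactory, vomeronasal and taste receptor genes, which neural tissue has little use for, took 4554 CPM (counts scaled to a common library size) there against 22.5 to 95.9 in the other libraries. The counts, the medians and the subunits that separated the groups are therefore also given without Ybx1-KO 3. Ybx1 itself was at 234.8, 522.7 and 301.1 CPM in the controls and at 124.1, 54.5 and 9.51 CPM in the libraries labelled Ybx1-KO (log2 fold change -2.49, adjusted p = 0.302, edgeR). It was lower in all 3 with a wide spread among them, highest in Ybx1-KO 1 and lowest in Ybx1-KO 3. Sox2 was present in both groups (35.5 and 35.7 CPM). Levels between genes are given as FPKM, counts on the gene scaled by its exon length and by the library's total on genes, and levels of 1 gene between libraries as CPM scaled with edgeR's trimmed mean of M values (TMM). In these sorted but bulk samples, fewer cells of a type and less RNA per cell cannot be told apart.

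In the control NPC libraries 41 of the 132 subunits were expressed, counted as those above 1 FPKM in each of the 3 libraries. They were 14 of 26 calcium, 4 of 14 sodium and 23 of 92 potassium channel subunits. Their median level was 3.18 FPKM. Another 67 reached 1 FPKM in no control, and 17 stayed below 0.1 FPKM in all 3. In Ybx1-KO 33 subunits were above 1 FPKM in every library, and 28 were so in all 6 libraries. The control libraries also held neuron transcripts, with 10 neuron markers at a summed 3241 to 4802 CPM and 10 progenitor markers at 1474 to 1682 CPM. Which of the sorted cells held a subunit therefore cannot be told.

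**Figure D1:**
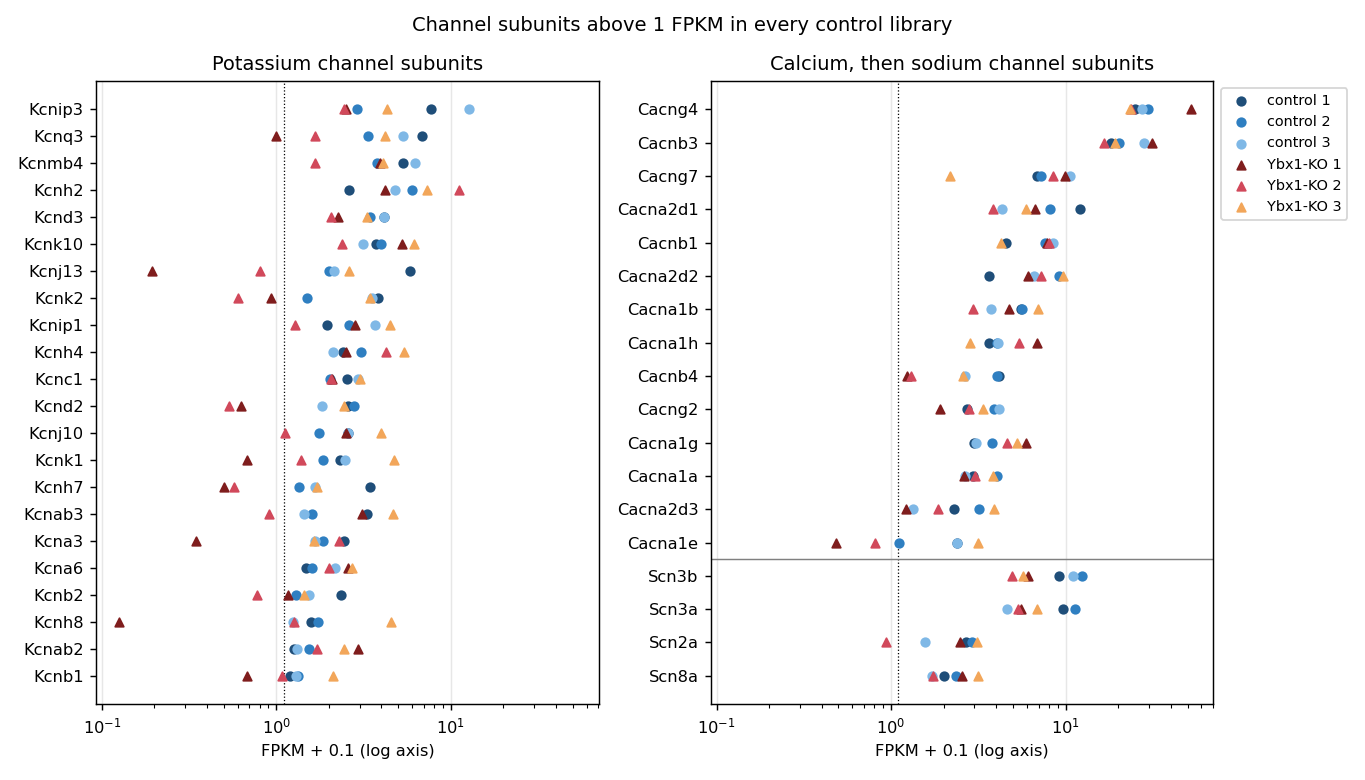
FPKM plus 0.1 (log axis) of the subunits above 1 FPKM in every control library that are reported by name, 1 symbol per library (circles, controls; triangles, Ybx1-KO), with the dotted line at 1 FPKM. Cacng4 and Cacnb3 lie highest in all 6 libraries, and Kcnd2, Kcnh7 and Kcnk2 are among the subunits that Ybx1-KO 1 and 2 place below 1 FPKM.

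The 2 most abundant genes were among those counted as calcium channel subunits by their symbols. The highest of all 132 was Cacng4, a TARP (an auxiliary protein of AMPA-type glutamate receptors named after the calcium channel gamma subunit it resembles), at 25.0, 29.6 and 27.2 FPKM in the controls. It was the top member of its family in every library, and Cacnb3, a cytoplasmic beta subunit that carries the pore to the membrane, was likewise the top beta subunit in every library (18.0, 20.2 and 27.9 FPKM). Cacng4 and Cacnb3 together made up 44.6% of the summed calcium channel FPKM in the controls. That sum (mean 110.4 FPKM) includes the gamma and TARP family, which gave 41.3 FPKM of it. Cacng7 (8.14 ± 2.05 FPKM, SD, n = 3), Cacna2d1 (8.07 ± 3.88), Cacnb1 (6.77 ± 2.05) and Cacna2d2 (6.35 ± 2.75) followed, and these 4 did not differ beyond their spread.

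Among the calcium channel pores, 5 of 10 were expressed in every control. The N-type Cacna1b was at 4.85 ± 1.07 FPKM (SD, n = 3), the T-type Cacna1h at 3.83 ± 0.25 and Cacna1g at 3.18 ± 0.44, the P/Q-type Cacna1a at 3.10 ± 0.73 and the R-type Cacna1e at 1.87 ± 0.74. Compared within each library, Cacna1g lay below Cacna1h and Cacna1e below Cacna1a in all 3 controls, while the other neighbours in this order changed places. The L-type Cacna1c reached 1.85, 0.87 and 1.496 FPKM and so missed the limit in control 2, and Cacna1d averaged 0.92 FPKM. Cacna1s, the skeletal muscle pore, was below 0.1 FPKM in all 3 controls.

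Sodium channel transcripts came mainly from a single pair. The auxiliary subunit Scn3b (9.05, 12.3 and 10.9 FPKM) and the pore Scn3a (9.53, 11.2 and 4.49 FPKM), both known for high expression before birth, made up 69.3% of the summed sodium channel FPKM in the controls. Scn3a was the top pore and Scn3b the top beta subunit in all 6 libraries. Scn2a (2.29 ± 0.72 FPKM, SD, n = 3) and Scn8a (1.93 ± 0.33), the main pores of adult central neurons, were lower, with Scn3a at 3.05 to 3.97 times Scn2a in the controls. Scn1a and Scn9a were above 1 FPKM in only some controls, and the beta subunit Scn2b (mean 0.83 FPKM) in none.

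No potassium channel subunit dominated in this way. Kcnip3, which binds Kv4 channels and is also a calcium-sensing transcriptional repressor, was the highest on average (7.68 ± 4.91 FPKM, SD, n = 3) and gave 7.37% of the summed potassium channel FPKM, and the top 10 subunits together gave 42.7%. Kcnq3, a pore of the M-current (5.07 ± 1.75), the BK channel beta subunit Kcnmb4 (4.99 ± 1.22), the Erg-type Kcnh2 (4.36 ± 1.70), the A-type Kcnd3 (3.80 ± 0.41) and the leak channel Kcnk10 (3.51 ± 0.42) were also among the highest, each within the spread of the one before it. The 10 modifier subunits (Kcnf1, Kcng, Kcns and Kcnv), which form no channel on their own, had no member expressed in every control.

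The summed level of each ion's subunits did not separate the genotypes. Calcium channel subunits added up to 102.5, 114.7 and 114.0 FPKM in the controls and to 140.7, 94.3 and 117.6 in Ybx1-KO. Potassium channel subunits gave 114.3, 83.2 and 115.0 FPKM against 65.9, 66.7 and 213.2, so that Ybx1-KO 1 and 2 lay below every control and Ybx1-KO 3 far above. Sodium channel subunits gave 27.7, 33.5 and 21.8 FPKM against 21.7, 14.7 and 38.5, with the same spread among the Ybx1-KO libraries.

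**Figure D2:**
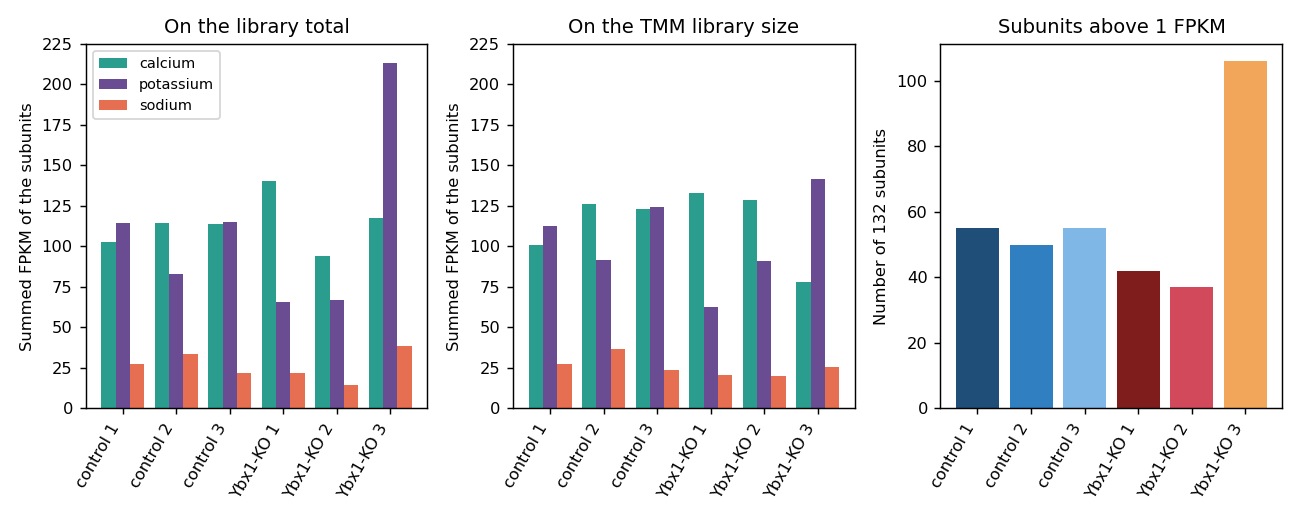
Summed FPKM of the subunits of each ion in each library, scaled on the total on genes (left) or on the TMM library size (middle), and the number of the 132 subunits above 1 FPKM in each library (right). Ybx1-KO 3 has 106 subunits above 1 FPKM, against 37 to 55 in the other libraries, and the highest potassium sum on either scale (213.2 and 141.5 FPKM).

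Part of the height of Ybx1-KO 3 came from genes that the other libraries hardly held. Of the 132 subunits, 43 were below 0.5 FPKM in the 5 other libraries, and 27 of these were above 1 FPKM in Ybx1-KO 3, where the median of the 43 was 1.42 FPKM. The 31 potassium channel subunits among them added up to 49.5 FPKM in Ybx1-KO 3 and to at most 4.07 FPKM elsewhere. The other 61 potassium channel subunits still gave 163.7 FPKM there, above the controls (110.8, 81.1 and 110.9 FPKM), but 108.6 on the TMM scale, between the controls (109.0, 89.3 and 119.7). Kcna10 had 78 counts there (7.59 FPKM) and at most 1 count in any other library. The sensory neuron pore Scn10a and the skeletal muscle pore Scn4a also belong to the 43. Scn4a was at 0.57, 0.046 and 1.05 CPM in the controls and at 0, 1.12 and 21.1 CPM in Ybx1-KO, while the summed level of 8 muscle markers was 22.7 to 47.7 CPM in Ybx1-KO and 49.5 to 96.8 in the controls. What these reads in Ybx1-KO 3 come from was not tested.

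The genotype test took the 75 subunits whose mean was above 1 FPKM in either group (49 potassium, 8 sodium, 18 calcium). Of these, 48 passed in both groups, 6 through the control mean alone and 21 through the Ybx1-KO mean alone. The 6 (Kcne2, Kcng1, Kcnh5, Kcnh7, Kcnj3 and Scn1a) entered through the group in which they are high, which favours a difference. Of the 21, 17 were at or below 1 FPKM in the mean of Ybx1-KO 1 and 2. The other 57 subunits were too low to test.

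No subunit was called in either direction (edgeR quasi-likelihood test, with an adjusted p under 0.05 together with a change of over 1.5-fold), and neither was any of the 21330 genes tested (0.0%). The smallest adjusted p was 0.359 among the subunits and 0.168 among all genes. DESeq2 called no subunit either, while it called 118 genes higher (0.553% of all) and 96 lower (0.45%), and limma-voom called no gene. No subunit was called with no filter (113 genes higher, 0.264%, and 80 lower, 0.187%) or with control 2 left out (29 higher, 0.135%, and 44 lower, 0.205%). Leaving out Ybx1-KO 3 gave no call in any gene, but leaving out Ybx1-KO 1 gave 5 higher (2.19% of all genes) and 2 lower (0.679%), Kcnip3 and Kcnn2, and leaving out Ybx1-KO 2 gave 3 higher (1.96%) and 3 lower (1.01%), Kcnh7, Kcnip3 and Kcnq3. All those called higher belong to the 43 subunits below 0.5 FPKM in the 5 libraries other than Ybx1-KO 3. At an unadjusted p below 0.05, 10 of 75 subunits were lower in Ybx1-KO (4.27% of all genes) and 5 were higher (6.96% of all genes). The common coefficient of variation between libraries of a group was 0.80, 1 value fitted over all tested genes and not for each subunit. With such a spread a missed threshold does not show that a subunit stayed the same. Of the 5, Cacna1s, Kcna10, Kcne1 and Scn4a had their highest value in Ybx1-KO 3, and these 4 entered the test through the Ybx1-KO mean alone. In 9 subunits all 3 Ybx1-KO libraries lay below all 3 controls (8.17% of all genes), and in 2 they lay above (4.99%). Kcnh7 among the lower and Cacng5 among the higher entered only through the group in which they are high, which favours a difference. With 3 libraries a group, the exact permutation test of a single subunit cannot go below 0.1.

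**Figure D3:**
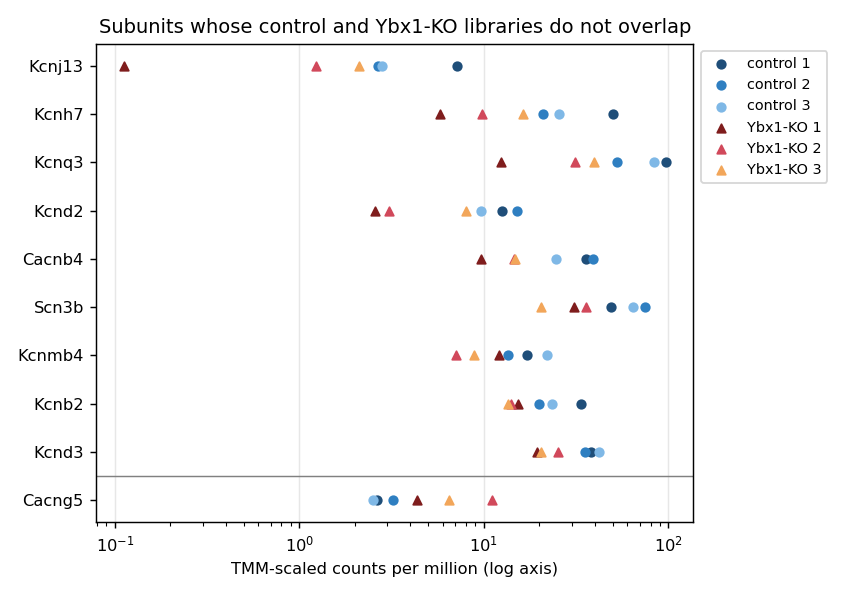
TMM-scaled CPM (log axis) of subunits reported by name whose control libraries (circles) and Ybx1-KO libraries (triangles) do not overlap, 1 symbol per library, ordered by fold change. The 9 above the grey line are lower in Ybx1-KO, and Cacng5 below it is higher; none passed the adjusted threshold.

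Y-box proteins take their name from the Y-box, an element with an inverted CCAAT core, so the promoters of the 11 subunits without overlap were read for CCAAT on either strand. In the window of 250 bases before to 50 after each gene's RefSeq start (GRCm38.p6), 41.1% of 27025 genes held a match. Among the subunits it was 34 of the 97 in the table, and 12 of 30 of those expressed in every control. Of the subunits without overlap 6 of the 9 lower and 1 of the 2 higher were in the table, and Kcnj13, Kcnh7, Cacnb4 and Cacng5 held a match. Kcnj13 held 2 matches, both in the stretch shown, and Kcnh7 a further match after its start. Stretches around the matches, which never pass the gene start, are shown on the gene's strand with each match in capitals, for a view of where the letters lie and not as binding sites. They are Kcnj13 at chr1:87394761-87394835, Kcnh7 at chr2:63184415-63184489, Cacnb4 at chr2:52558612-52558652 and Cacng5 at chr11:107915067-107915141, all on the minus strand. The RefSeq start of Cacnb4 lies inside the longer gene span of the GENCODE annotation that is given with its counts.
Kcnj13: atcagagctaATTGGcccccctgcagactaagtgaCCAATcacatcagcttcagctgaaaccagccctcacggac
Kcnh7: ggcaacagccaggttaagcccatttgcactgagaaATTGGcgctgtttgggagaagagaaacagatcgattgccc
Cacnb4: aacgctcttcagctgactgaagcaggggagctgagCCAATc
Cacng5: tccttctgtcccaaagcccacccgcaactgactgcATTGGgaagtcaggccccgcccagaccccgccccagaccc

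The median log2 fold change (Ybx1-KO over control) of the 75 subunits was -0.04, and 37 were higher and 38 lower, where the median of all tested genes was 0.31. By ion the median was 0.01 for potassium, -0.16 for sodium and -0.13 for calcium channel subunits. Without Ybx1-KO 3, 58 subunits could be tested, with a median of -0.41 against 0.01 for all genes, and 37 were lower and 21 higher. In that comparison 16 subunits were lower at an unadjusted p below 0.05 (5.63% of all genes) and 3 were higher (7.49%), and again none was called. By ion its median was -0.74 for potassium, -0.49 for sodium and -0.03 for calcium channel subunits. Groups did not overlap for 18 subunits lower (16.5% of all genes) and 7 higher (13.8%).

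**Figure D4:**
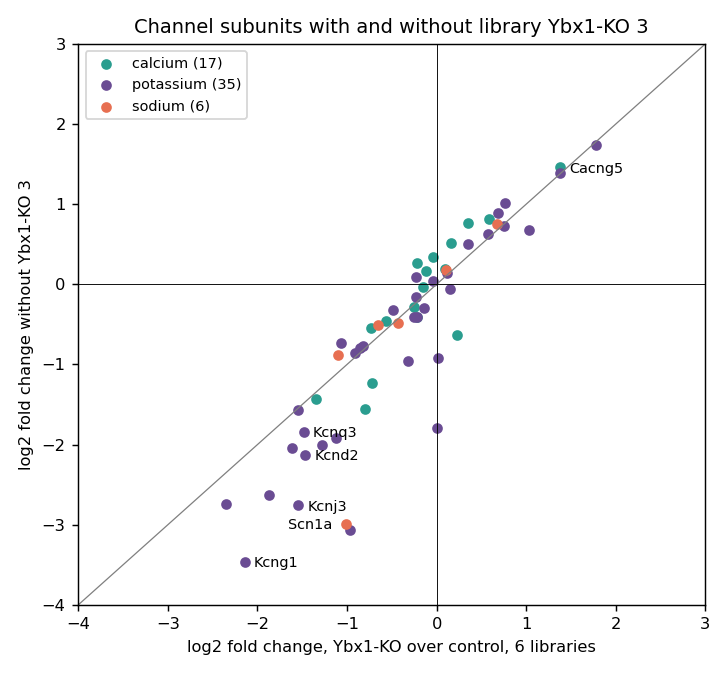
Log2 fold change (Ybx1-KO over control) of the 58 subunits that could be tested both ways, from all 6 libraries (x axis) and without Ybx1-KO 3 (y axis), coloured by ion, with the line of equal values. Several subunits fall well below the line, such as Scn1a (-1.02 and -2.99) and Kcng1 (-2.14 and -3.46), because Ybx1-KO 3 had the highest value of the Ybx1-KO libraries.

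Channel genes are long, and over all 6 libraries the fold change moved with exon length. The tested subunits had a median exon length of 5407 bases against 2691 for all tested genes, and across all 21330 genes (which are not independent replicates) the log2 fold change fell with exon length (Spearman's rho = -0.43). Genes with over 5000 bases of exon had a median of -0.13, and the 41 subunits of that length a median of -0.23. When each library's trend of counts on exon length was removed, the median of the subunits became 0.55 against 0.59 for all genes, no subunit was lower at an unadjusted p below 0.05 (1.34% of all genes) and 10 were higher (12.7%). The median of the subunits thus turned positive with this scaling, and like the uncorrected one it lay below that of all genes. Fold changes given below for single genes with the trend removed are on this scale, where the median of all genes was 0.59. Of the 9 subunits lower without overlap, Scn3b and Kcnj13 remained so (3.54% of all genes) and the other 7 overlapped. With the trend removed and Ybx1-KO 3 left out, 14 of 58 subunits were lower (6.26% of all genes), 3 were higher (7.87%), and the median was -0.29 against 0.01. With the trend kept and Ybx1-KO 3 left out, 16 were lower and the median was -0.41, so removing the trend changed less there than over all 6 libraries. Of the 9 subunits, 8 were then without overlap (17.3% of all genes), and Kcnb2 overlapped.

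**Figure D5:**
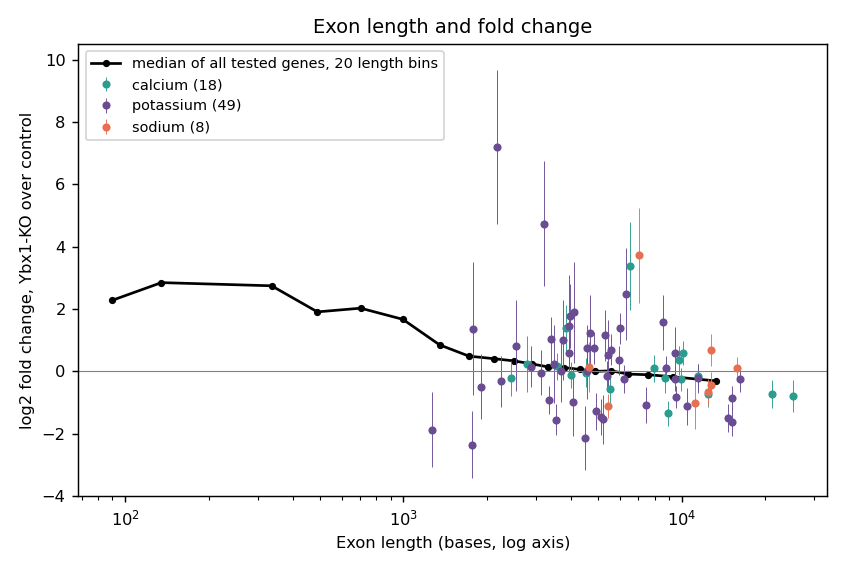
Log2 fold change (Ybx1-KO over control) of the 75 tested subunits, with standard errors, against exon length (log axis), coloured by ion. The black line joins the medians of all tested genes in 20 bins of exon length and falls from 2.28 in the shortest bin to -0.31 in the longest.

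Among the sodium channel subunits Scn3b (chromosome 9, 40269217 to 40291618, GRCm38) separated the groups. It was at 48.6, 74.2 and 64.0 CPM in the controls and at 30.9, 35.8 and 20.4 CPM in Ybx1-KO (log2 fold change -1.10 ± 0.38 SE, adjusted p = 0.412, unadjusted p = 0.0106). All 3 Ybx1-KO libraries lay below the lowest control, also with the length trend removed (log2 fold change -0.67), and without Ybx1-KO 3 the value was -0.89. Its partner pore Scn3a was at 116.9, 153.7 and 60.4 CPM against 64.8, 88.6 and 56.2 CPM, and the groups overlapped (log2 fold change -0.66 ± 0.42, adjusted p = 0.490). Scn2a (log2 fold change -0.43), Scn8a (0.11) and Scn9a (0.68) overlapped as well. Scn1a was at 17.3, 11.98 and 7.80 CPM in the controls but at 0.33, 2.76 and 15.4 CPM in Ybx1-KO, so only Ybx1-KO 1 and 2 were below the controls (log2 fold change -1.02 ± 0.83), and without Ybx1-KO 3 the value was -2.99. With the length trend removed the fold changes of Scn1a, Scn2a and Scn3a became positive (0.17, 0.43 and 0.07) but stayed below the median of all genes (0.59), and with Ybx1-KO 3 also left out all 3 were negative (-2.89, -0.16 and -0.26).

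Of the calcium channel subunits, the beta subunit Cacnb4 (chromosome 2, 52428320 to 52676831, GRCm38) was lower in all 3 Ybx1-KO libraries. It was at 35.6, 38.8 and 24.7 CPM in the controls and at 9.60, 14.6 and 14.7 CPM in Ybx1-KO (log2 fold change -1.35 ± 0.40 SE, adjusted p = 0.359, unadjusted p = 0.00356). Without Ybx1-KO 3 the log2 fold change was -1.44, and with the length trend removed it was -0.64, with overlap. The antisense gene A430018G15Rik, which shares 16.0% of the exon bases of Cacnb4 on the opposite strand, was at 7.32, 10.3 and 7.70 CPM against 1.79, 1.23 and 6.16. The strand setting of the counting is not given in the sources used here, so that the reads of this pair may not be separate. The other beta subunits Cacnb3 (71.2, 89.0 and 120.5 CPM against 118.0, 90.4 and 50.8) and Cacnb1 (log2 fold change -0.05 ± 0.47) overlapped between the groups, and the directions of both turned between settings.

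The TARP Cacng5 stood on the other side. It was at 2.65, 3.23 and 2.50 CPM in the controls and at 4.35, 11.04 and 6.44 CPM in Ybx1-KO (log2 fold change 1.38 ± 0.73 SE, adjusted p = 0.450), higher in all 3 libraries. In the controls it was below the limit of the test (0.70, 0.76 and 0.60 FPKM), and it was tested only because its mean in Ybx1-KO was 1.95 FPKM. Without Ybx1-KO 3 the log2 fold change was 1.46. Cacng4 was at 88.1, 116.2 and 104.8 CPM against 175.9, 114.5 and 55.4 CPM and thus spanned the controls. Among the pores, the T-type channels Cacna1g and Cacna1h were higher in Ybx1-KO 1 and 2 than in every control: Cacna1g was at 28.8, 41.1 and 32.5 CPM against 56.0, 62.6 and 34.7 CPM (log2 fold change 0.58 ± 0.38, adjusted p = 0.490), and Cacna1h at 34.1, 42.2 and 42.3 CPM against 62.4, 71.0 and 17.6 CPM (0.35 ± 0.45, adjusted p = 0.724). Without Ybx1-KO 3 their log2 fold changes were 0.81 (unadjusted p = 0.0438) and 0.77 (0.0487). The other T-type pore, Cacna1i, was too low to test and was not higher in both (3.83, 2.03 and 4.00 CPM against 1.23, 4.70 and 9.79 CPM). The high-voltage pores Cacna1e (57.1, 27.9 and 62.3 CPM against 9.15, 24.4 and 51.1 CPM) and Cacna1c (38.7, 20.2 and 34.2 against 11.5, 14.7 and 30.5) showed the opposite order in those libraries, and Cacna1a and Cacna1b overlapped with log2 fold changes of -0.15 and -0.26. With the length trend removed, all 4 of these high-voltage pores had positive fold changes, from 0.23 for Cacna1e to 0.52 for Cacna1a, which were below the median of all genes (0.59). With Ybx1-KO 3 also left out, Cacna1a was at 0.14 and the others were negative, at -1.38 for Cacna1e, -0.97 for Cacna1c and -0.10 for Cacna1b.

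Among the potassium channel subunits 7 were lower without overlap (8.17% of all genes) and 1 higher (4.99%), and 0 were called. They were pores of several current types and the auxiliary subunit Kcnmb4. Kcnq3 (chromosome 15, 65986387 to 66286642, GRCm38), a pore of the M-current, was at 97.4, 52.5 and 83.1 CPM in the controls and at 12.4, 31.2 and 39.7 CPM in Ybx1-KO (log2 fold change -1.49 ± 0.45 SE, adjusted p = 0.364, unadjusted p = 0.00432). All 3 Ybx1-KO libraries lay below the lowest control, and without Ybx1-KO 3 the log2 fold change was -1.84 (unadjusted p = 0.00295). With the length trend removed it was -0.64, and the groups overlapped.

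Both expressed Kv4 pores, which carry the A-type current that delays firing, lay lower in all 3 Ybx1-KO libraries. Kcnd3 was at 37.8, 35.2 and 42.0 CPM against 19.4, 25.4 and 20.3 CPM (log2 fold change -0.82 ± 0.36 SE, adjusted p = 0.444), and Kcnd2 at 12.6, 15.2 and 9.65 CPM against 2.57, 3.07 and 7.97 CPM (-1.47 ± 0.59, adjusted p = 0.439). Their auxiliary subunit Kcnip3 varied widely among the controls at 26.5, 10.97 and 48.3 CPM, and was at 8.04, 11.3 and 9.93 CPM in Ybx1-KO (log2 fold change -1.55 ± 0.50, adjusted p = 0.393), where Ybx1-KO 2 was just above control 2. Kcnip1 overlapped (log2 fold change -0.25). Without Ybx1-KO 3 the log2 fold changes were -0.77 for Kcnd3, -2.13 for Kcnd2 and -1.56 for Kcnip3. With the length trend removed Kcnd3 (-0.21) and Kcnd2 (-0.68) overlapped between the groups.

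Kcnh7, an Erg-type pore, was at 50.1, 21.0 and 25.5 CPM in the controls and at 5.80, 9.71 and 16.2 CPM in Ybx1-KO (log2 fold change -1.61 ± 0.48 SE, adjusted p = 0.359, unadjusted p = 0.00370). Its relative Kcnh2 was at 11.95, 31.2 and 24.6 CPM against 18.6, 72.8 and 23.2 CPM (log2 fold change 0.76 ± 0.51), with overlap. The delayed rectifier Kcnb2 (33.6, 20.0 and 23.5 CPM against 15.3, 14.0 and 13.4 CPM, log2 fold change -0.85 ± 0.39, adjusted p = 0.444) and the BK beta subunit Kcnmb4 (17.1, 13.45 and 21.9 CPM against 12.1, 7.05 and 8.81 CPM, -0.91 ± 0.45, adjusted p = 0.450) also had no overlap. Without Ybx1-KO 3 the log2 fold changes were -2.05 for Kcnh7, -0.80 for Kcnb2 and -0.85 for Kcnmb4. With the length trend removed they were -0.68, -0.11 and -0.47, and all 3 overlapped. Antisense genes share 10.7% and 20.8% of the exon bases of Kcnmb4.

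Ybx1-KO 1 and 2 lay below every control, and Ybx1-KO 3 did not, for 9 further subunits: Cacna1c, Cacna1e, Scn1a, Kcng1, Kcnh5, Kcnj3, Kcnk1, Kcnk2 and Kcnn3. The set is defined by the value of Ybx1-KO 3 itself. All 9 are among the 18 of 58 subunits lower without overlap when that library is left out (16.5% of all genes). Scn1a, Kcng1, Kcnh5 and Kcnj3 entered the test through the control mean alone, the group in which they are high. Kcnk2, the TREK-type leak channel, was at 18.0, 7.65 and 18.4 CPM in the controls and at 3.91, 3.37 and 10.9 CPM in Ybx1-KO (log2 fold change -1.28 ± 0.58 SE, adjusted p = 0.444). Kcnj3, a subunit of G protein-gated inward rectifiers, was at 11.3, 3.96 and 10.7 CPM against 1.01, 1.53 and 6.44 CPM (-1.54 ± 0.80, adjusted p = 0.450), with 31.1% of its exon bases shared with a gene on the opposite strand. Without Ybx1-KO 3 the log2 fold changes were -2.003 for Kcnk2 and -2.76 for Kcnj3. The leak channel Kcnk10, by contrast, was at 31.1, 37.5 and 28.9 CPM against 43.0, 27.3 and 35.3 CPM (log2 fold change 0.11 ± 0.37).

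Several other families were not separated. The Kv1 pore Kcna3 (log2 fold change -0.49 ± 1.03 SE), the Kv3 pore Kcnc1 (-0.23 ± 0.38), the Kv beta subunit Kcnab3 (0.15 ± 0.66) and the calcium-activated Kcnn2 (-1.07 ± 0.58) each overlapped, and so did Kcng1 (-2.14 ± 1.02, and -3.46 without Ybx1-KO 3), the 1 modifier subunit high enough to test.

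Kcnj13 and Kcne2 are channel genes of the choroid plexus, the secretory epithelium of the brain ventricles. Kcne2 was at 8.64, 1.29 and 10.6 CPM in the controls and at 0.11, 1.94 and 1.96 CPM in Ybx1-KO (log2 fold change -2.35 ± 1.07 SE, adjusted p = 0.444). It entered the test through the control mean alone, the group in which it is high. Kcnj13 was at 7.13, 2.67 and 2.80 CPM against 0.11, 1.23 and 2.10 CPM (-1.88 ± 1.20, adjusted p = 0.490) without overlap, and shares 49.1% of its exon bases with Gigyf2 on the opposite strand. Without Ybx1-KO 3 the log2 fold changes were -2.74 for Kcne2 and -2.63 for Kcnj13. The summed level of 5 choroid plexus markers was 796.9, 122.6 and 1021 CPM in the controls and 102.9, 133.1 and 73.0 CPM in Ybx1-KO (4 of 5 lower, 0 called, none at 0). Kcne2 was lowest among the controls in the same library as the markers, control 2. Kcnj13 was at 2.67 CPM in control 2 and at 2.80 CPM in control 3, where the marker sum was highest. The part of these markers in the result was not tested.

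Other cell types were followed by their markers. The summed level of 10 neuron markers was 3241 to 4802 CPM in the controls and 1360 to 3607 CPM in Ybx1-KO (8 of 10 lower, 0 called, none at 0). It was lowest in Ybx1-KO 3, and Ybx1-KO 1 and 2 (3607 and 3272 CPM) were within the control range. The groups did not overlap for 2 of the 10, both lower (8.17% of all genes). These were Snap25 (111.3, 161.5 and 166.6 CPM in the controls against 50.8, 79.7 and 50.9 CPM) and Syt1 (57.1, 81.8 and 80.8 CPM against 49.9, 41.4 and 39.45 CPM). Among the Ybx1-KO libraries, Kcnq3 and the summed potassium channel subunits were lowest in Ybx1-KO 1 and highest in Ybx1-KO 3. Snap25 was level in Ybx1-KO 1 and 3, and Syt1 was lowest in Ybx1-KO 3. What these orders come from was not tested. The sum of 10 progenitor markers was 1474 to 1682 CPM against 1104 to 1866 CPM, but single markers moved in opposite directions. Of the 10, 2 were higher without overlap (4.99% of all genes), 1 was lower (8.17%) and 0 called. Nes (log2 fold change 1.435) and Hes5 (1.05) were the higher ones, and Slc1a3 (-1.78) was the lower one. The summed level of 5 neural crest glia markers was higher in all 3 Ybx1-KO libraries, at 30.3, 46.4 and 49.9 CPM against 73.8, 162.4 and 54.4 CPM. Of the 5, 3 were higher without overlap (4.99% of all genes) and 0 called. Their part in the values of Kcnq3, Scn3b, Cacnb4 and the Kv4 pores was not tested.

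The proteins that work with these channels, such as calmodulin, ankyrins, HCN channels and the sodium leak complex, gave 24 tested genes out of 37, with 16 lower and 8 higher in Ybx1-KO and a median log2 fold change of -0.24, and 0 called (2 higher, 6.96% of all genes, and 0 lower, 4.27%, at an unadjusted p below 0.05). The groups did not overlap for 5 lower (8.17% of all genes), among them Cntnap2, Fgf12, Fgf14 and Unc79, and for 1 higher (4.99%), Tpcn1. With the length trend removed the log2 fold changes were -0.10 for Cntnap2, -0.72 for Fgf12, -0.05 for Fgf14, 0.03 for Unc79 and 1.38 for Tpcn1. Without Ybx1-KO 3, 21 partners could be tested, with a median of -0.06. The groups then did not overlap for 5 lower (16.5% of all genes) and 2 higher (13.8%). All genes had a median of 0.31 over all 6 libraries and of 0.01 without Ybx1-KO 3. With the length trend removed, 9 partners were lower and 15 higher, with a median of 0.44 against 0.59 for all genes. Without overlap were 1 lower (3.54%) and 4 higher (11.6%). With Ybx1-KO 3 also left out, the median was -0.08 against 0.01, with 3 lower (17.3%) and 4 higher (14.7%) without overlap. Fgf12, which binds sodium channel pores, was at 7.08, 8.89 and 7.25 CPM in the controls and at 2.90, 3.68 and 3.08 CPM in Ybx1-KO (log2 fold change -1.26 ± 0.66 SE, adjusted p = 0.450), and without Ybx1-KO 3 the value was -1.22. Rest, the repressor of neuronal channel genes in non-neuronal cells, was at 25.5, 35.8 and 15.1 CPM against 15.3, 31.1 and 27.8 CPM (-0.04 ± 0.43). Calm2 (log2 fold change -0.26), Calm3 (0.38), Ank3 (-0.23), Ank2 (-0.43) and Nfasc (-0.25) all overlapped between the groups.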

How the data were processed

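Per the labels and the study's methods, stranded total RNA libraries were sequenced as read pairs, and the authors counted them on GENCODE genes with HTSeq 0.6.1p1 (builds mm10 and GRCm38.p5 in the processing notes). They deposited raw counts per symbol, 1 table per library, unpooled and unnormalized. The aligner and strand setting are not given in the sources used here. The counter's own tallies entered no library size. FPKM used the exon union of GENCODE M21 (GRCm38), which matched 47624 symbols directly and 359 by an older symbol. Counts of genes above a mean of 1 FPKM in either group were fitted with edgeR 4.0.16 (R 4.3.3; TMM, quasi-likelihood, Benjamini-Hochberg adjustment over 21330 genes), after a test on simulated data. The common coefficient of variation over these genes was 0.80. In 1 library, 3 counts equal 0.126 to 0.633 CPM. The TMM factors ranged from 0.734 to 1.51. DESeq2 1.42.0 and limma 3.58.1 were alternatives.

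The subunits, marker lists and 37 partner genes were chosen with earlier results of these data known. Named were called subunits, the 15 with the highest control FPKM, up to 8 each way without overlap, the top of each family above 1 FPKM, all tested sodium and calcium pores, and of the partners the 6 highest and Rest; others were named after their values were seen. Some genes are counted but not reported here by name.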

Additional observations from a re-analysis of the deposited data

How the results depend on the processing

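No paired analysis was possible because the titles of controls and knockouts share no leading number and only 1 trailing number. In the titles 2 libraries of each group share a leading number of unstated meaning. Across the alternatives, 627 values of single genes kept their direction and side of the threshold, 8 passed it in the same direction and 58 turned in direction. Of the counts and medians 135 held and 50 moved. No subunit was called under any other test, normalization or filter, where over all genes DESeq2 called 118 higher (0.553%) and 96 lower (0.45%) and no filter 113 (0.264%) and 80 (0.187%).

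With the exon length trend removed, 10 subunits were higher (12.7% of all genes) and 0 lower (1.34%) at an unadjusted p below 0.05. Without overlap were 8 higher (11.6%) and 2 lower (3.54%). The medians were 0.55 for all, 0.79 for potassium, 0.53 for sodium and 0.47 for calcium channel subunits. With Ybx1-KO 3 also left out (chosen after seeing the data), 3 were higher at an unadjusted p below 0.05 (7.87% of all genes). Without overlap were 8 higher (14.7%) and 15 lower (17.3%), and the medians were -0.54 for potassium and 0.11 for calcium. Scaling by total count gave 5 lower at an unadjusted p below 0.05 (2.36% of all genes), and 5 higher and 3 lower without overlap (1253 and 1121 of 21330 genes). DESeq2 size factors gave 5 higher without overlap (1353 of 21330 genes), and limma-voom 1 higher at an unadjusted p below 0.05 (3.54% of all genes). A filter of 1 CPM in 3 libraries gave 3 higher at that p (5.58% of all genes), 5 higher without overlap (1195 of 16670 genes) and a sodium median of 0.24. A mean above 1 FPKM over all libraries gave 3 higher at that p (7.39%). No filter gave 14 lower without overlap (2486 of 42828 genes) and a sodium median of 0.29. A limit of 0.5 or 2 FPKM gave 62 or 22 subunits expressed in every control. Medians over subunits above 1 FPKM in the mean of the 5 other libraries, chosen after seeing the data, kept within the spread.

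Leaving out each library in turn gave 0 to 5 called higher and 0 to 3 called lower (0 to 531 and 0 to 247 of all genes). It gave 2 to 11 higher and 4 to 16 lower at an unadjusted p below 0.05 (2.915% to 11.44% and 1.923% to 5.82% of all genes). Without overlap were 3 to 11 higher and 10 to 19 lower (1297 to 2619 and 2168 to 3624 of 15185 to 24346 genes). The medians were -0.41 to 0.16 for all, -0.74 to 0.43 for potassium and -0.49 to 0.45 for sodium. The causes were not tested.

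With the length trend removed the median log2 fold change of all genes was 0.59. Of the genes that turned there, only Rest lay above it. Log2 fold changes turned in direction as follows. With the length trend removed they were Cacnb3 0.23, Scn3a 0.072, Cacnb1 0.23, Cacna1b 0.48, Kcnc1 0.34, Cacna1a 0.52, Cacna1c 0.28, Cacna1e 0.23, Scn1a 0.17, Scn2a 0.43, Ank3 0.58, Ank2 0.47, Nfasc 0.40 and Rest 0.64. With Ybx1-KO 3 also left out they were Cacnb3 0.11, Cacng7 0.17, Cacnb1 0.30, Kcnab3 -0.21, Cacna1a 0.14, Ank3 0.56, Ank2 0.32 and Nfasc 0.14. They were Cacnb3 0.014 and Rest 0.15 by total count, Cacnb1 0.0034 and Rest 0.058 with DESeq2, Cacnb1 0.0044 and Rest 0.058 with its size factors, Cacnb1 0.028 and Rest 0.056 with the CPM filter, Rest 0.027 with the mean over all libraries, and Cacna2d2 -0.028, Kcnk10 -0.015, Kcnab3 -0.0019 and Scn8a -0.011 with no filter. With a library left out the ranges were -0.33 to 0.52 for Cacng4, -0.46 to 0.17 for Cacnb3, -0.70 to 0.27 for Cacng7, -0.55 to 0.34 for Cacnb1, -0.25 to 0.48 for Cacna2d2, -0.19 to 1.07 for Kcnh2, -0.014 to 0.77 for Cacna1h, -0.14 to 0.23 for Kcnk10, -0.13 to 0.59 for Kcnab3, -0.51 to 0.10 for Cacna1a, -0.0073 to 0.29 for Scn8a, -0.16 to 0.76 for Calm3, -0.80 to 0.13 for Ank3 and -0.33 to 0.29 for Rest.

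The lowest depth (Ybx1-KO 3) limits subunits near 1 FPKM. The common coefficient of variation between libraries of a group, 0.80 over all tested genes, limits what 3 libraries a group can show.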
